A study of Mus musculus with 6 samples.

Results

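The chemokines and receptors described here are 5 ligands, Ccl8, Ccl11, Ccl17, Ccl22 and Ccl24, and 3 receptors, Ccr3, Ccr4 and Ccr8, which draw eosinophils and type 2 helper T (Th2) cells into tissue. They were taken by name, as every probe set whose platform annotation gives exactly 1 of these symbols, which gave 8 probe sets, 1 for each of the 8 genes, out of 18193 genes measured. RNA of whole lungs from mice at postnatal day 15 was hybridised to Affymetrix mouse genome arrays, 1 array per sample. The 3 control samples carry the genotype label wildtype, and the 3 littermate samples, called null here, carry the label Foxa2-/-. All 6 samples share a strain label, SPC(+)Cre(-) with doxycycline (Dox) given from embryonic day 6.5 to 12.5. That label does not separate the groups, and it names no Cre in the null lungs. The study asked how loss of Foxa2, a transcription factor of airway and alveolar epithelium, bears on Th2 inflammation and goblet cell excess.

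Chemokines are small secreted proteins that bind receptors with 7 membrane passes on leukocytes and set the direction in which the cells move. CCL11 and CCL24 are eotaxins, which attract eosinophils through CCR3. CCL17 and CCL22 attract Th2 and regulatory T cells through CCR4, and mouse CCL8 binds CCR8, which is carried by a subset of Th2 cells. In allergic airways IL-4 and IL-13, acting through STAT6, induce several of these ligands in epithelial, stromal and myeloid cells.

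All values are log2 signals from the deposited table, and a difference is the null mean minus the control mean. Foxa2 itself read 10.28, 10.56 and 10.28 in control replicates 1 to 3 and 7.72, 5.38 and 5.13 in null replicates 1 to 3, so the genotype label and the Foxa2 signal go together in all 6 samples. Even so, its difference of -4.30 did not pass the threshold used below (limma adjusted p = 0.0599). Null replicate 1 kept the most Foxa2 signal and correlated with the other null arrays at only 0.976 and 0.977 over all probe sets, against 0.992 between null replicates 2 and 3. With the controls it correlated at 0.972 to 0.978, so it stood apart from both groups. Null replicates 2 and 3 correlated with control replicate 2 at 0.985 and 0.988, above their values with null replicate 1. The arrays' medians lay between 7.85 and 7.91. Gapdh, whose control probe sets at the 2 ends of the transcript track RNA integrity, read higher at the 3-prime end by 1.06 to 1.23 in controls and by 0.91 to 0.97 in null lungs. The like value of Actb overlapped, at 0.46 to 0.65 and 0.43 to 0.47. The part of RNA integrity in the differences that follow was not tested. Lung identity was plain in both groups: of 10 epithelial and endothelial markers 0 passed (limma; 0 at an unadjusted p under 0.05), their median difference was -0.04 (0.01 without null replicate 2) with summed linear signals from 109906 to 115437 in controls and from 110502 to 121455 in null lungs, Sftpa1 and Ager differed by 0.32 and -0.16, and Sftpc and Scgb1a1 lay between 14.30 and 14.43 in every sample. Whole-lung RNA cannot tell more cells of a type from more RNA per cell, for any gene below.

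Ccl17 and Ccl24 rose in null lungs, and no gene of the 8 fell. All 5 ligands had a positive difference, from 2.19 to 4.15, while the receptors ranged from -0.05 to 1.94. Over all genes the median difference was 0.01 and 50.8% of the differences were positive, the share to set beside each count of positive differences below. Of the 8 genes 2 passed upward (limma, Benjamini-Hochberg adjusted p under 0.05 over all genes), beside 0.473% of all genes. Every null array lay above all controls for 5 of the 8, Ccl8, Ccl17, Ccl22, Ccl24 and Ccr8, where 10.8% of all genes did so. At an unadjusted p under 0.05 there were 6, where 12.3% of all genes were, in either direction. When all probe sets were tested in place of genes, limma called none of the 8 (6 at an unadjusted p under 0.05), where 0.0799% of all probe sets were called upward.

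**Figure D1:**
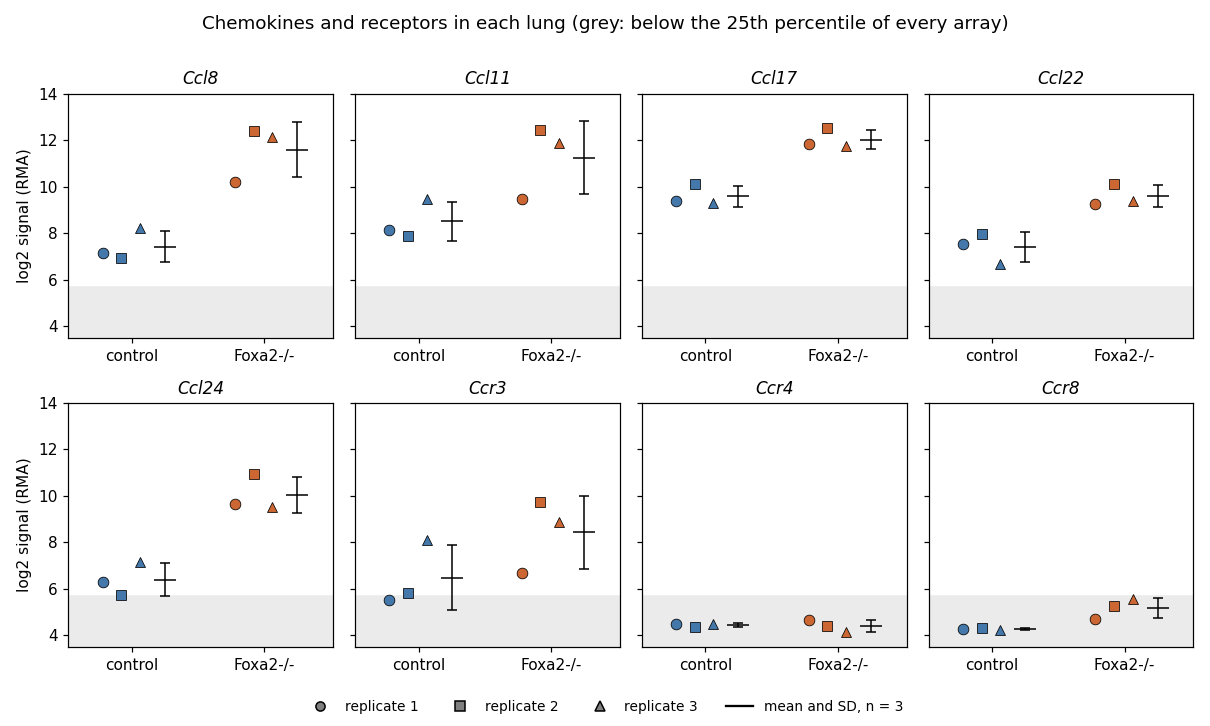
Log2 signal (vertical axis) of the 8 chemokines and receptors in each control (blue) and Foxa2-/- (orange) lung, with the mean and SD of 3 samples. The groups separate for Ccl8, Ccl17, Ccl22, Ccl24 and Ccr8, overlap for Ccl11 and Ccr3, and Ccr4 and Ccr8 lie in the grey zone below every array's 25th percentile.

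Ccl24, the eotaxin made mainly by myeloid and epithelial cells, read 6.30, 5.75 and 7.17 in controls and 9.66, 10.92 and 9.53 in null lungs. The lowest null sample stood 2.36 above the highest control. Its mean went from 6.41 ± 0.72 to 10.04 ± 0.77 (SD, n = 3 each), a 12.4-fold rise (log2 difference 3.63, SE 0.48, 95% interval 2.47 to 4.80, limma adjusted p = 0.0429). By size it ranked 12 of 18193 genes. The call ended in cyclic loess (adjusted p = 0.0555) and without any one array (adjusted p 0.0525 without null replicate 1, 0.0696 without control replicate 3, 0.0999 without null replicate 2, 0.105 without null replicate 3, 0.146 without control replicate 2 and 0.197 without control replicate 1), while the difference stayed between 3.19 and 4.02 with 1 array left out. It was 4.48 with a fixed block for the number in the sample titles, where the adjusted p was 0.285, the highest over the alternatives, and the lowest was 0.0131 with array weights.

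Ccl11, the first eotaxin, is made by fibroblasts, smooth muscle and epithelium. It read 8.13, 7.90 and 9.48 in controls and 9.46, 12.43 and 11.86 in null lungs. Null replicate 1 lay 0.02 below the highest control, control replicate 3, and the other null samples lay well above both. The difference of 2.74 (SE 0.82, 95% interval 0.79 to 4.70, 6.70-fold) did not pass (limma adjusted p = 0.236). It was 2.15 without null replicate 2 (adjusted p = 0.476) and 3.64 without null replicate 1 (adjusted p = 0.0453), in a range of adjusted p from 0.0203 to 0.529 over all alternatives. Control replicate 2 and null replicates 2 and 3 carry the same number in their titles, whose meaning is not stated, and within those 3 samples the difference was 4.24. Of 10 genes of fibroblasts and smooth muscle 0 passed (limma; 0 at an unadjusted p under 0.05). Their median difference was -0.11 (-0.03 without control replicate 1), Dcn and Pdgfra differed by -0.67 and -0.19, and their summed linear signal ran from 76929 to 81397 in controls and from 71092 to 74858 in null lungs. Their part in the Ccl11 signal was not tested.

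Ccl8 had the largest difference of the 8 genes. It read 7.14, 6.93 and 8.20 in controls and 10.22, 12.38 and 12.13 in null lungs, so the groups stood 2.02 apart, with control replicate 3 the highest control and null replicate 1 the lowest null sample. The difference was 4.15 (SE 0.62, 95% interval 2.66 to 5.65, 17.8-fold), ranking 6 of 18193 genes by size, but limma's adjusted p was 0.0568. The call turned with small changes of setting: adjusted p was 0.0474 after median centring, 0.0421 with trend and robust settings and 0.0189 without null replicate 1, where the difference was 4.83. Over all alternatives it ran from 0.00618 to 0.224, and the difference was 5.32 within the samples of the shared title number.

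**Figure D2:**
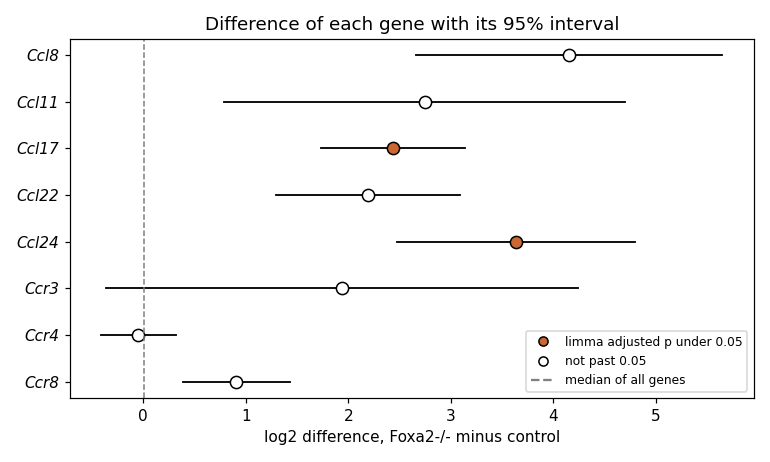
Log2 difference, Foxa2-/- minus control (horizontal axis), of each of the 8 genes with its 95% interval (line); filled points passed limma's adjusted p of 0.05 and the dashed line is the median of all genes. The 5 ligands lie between 2.19 and 4.15, Ccr3 at 1.94 has an interval that reaches below 0, and Ccr8 and Ccr4 lie at 0.91 and -0.05.

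Ccl17 and Ccl22, the CCR4 ligands, are both typical products of dendritic cells and alternatively activated macrophages. Among measured genes they stand side by side but for Cx3cl1 in the RefSeq annotation of GRCm38.p6, so the bases before both starts are shown for comparison. The sequences, from RefSeq on build GRCm38.p6, are the 250 bases before each annotated start, plus strand, with matches to the searched motifs in capitals.
Ccl22 (chr8:94745434-94745683): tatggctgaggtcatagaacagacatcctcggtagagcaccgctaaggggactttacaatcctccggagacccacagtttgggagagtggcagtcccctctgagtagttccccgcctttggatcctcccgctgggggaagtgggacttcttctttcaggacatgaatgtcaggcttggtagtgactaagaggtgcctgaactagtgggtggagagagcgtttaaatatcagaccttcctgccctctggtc
Ccl17 (chr8:94810203-94810452): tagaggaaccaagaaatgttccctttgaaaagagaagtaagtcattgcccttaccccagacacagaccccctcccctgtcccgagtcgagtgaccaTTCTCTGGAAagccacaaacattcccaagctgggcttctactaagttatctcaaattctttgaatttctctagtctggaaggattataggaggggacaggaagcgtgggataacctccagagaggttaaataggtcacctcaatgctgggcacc

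The capitals in the Ccl17 sequence mark the single match to the STAT6 pattern, TTC and GAA with 4 bases of any kind between them, whose first base lies at -154 from the start. Of 32851 RefSeq promoter windows of 300 bases (250 before to 50 after a start), 6.95% hold that pattern, which reads alike on both strands. The windows of Ccl8, Ccl22, Ccr3, Ccr4 and Ccr8 held no match to it. The other patterns, searched on both strands, were NF-kB as GGG, 2 bases of any kind and TTTCC (1.63% of windows), AP-1 as TGANTCA (7.81%) and FOXA as TGTTTAC (3.65%). Ccr3 held 1 match each for NF-kB and AP-1, which do not overlap, Ccr4 held 1 for AP-1, and none of the 6 windows held the FOXA pattern. The promoters of Ccl11 and Ccl24 were not analysed here.

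Ccl17 read 9.39, 10.10 and 9.29 in controls and 11.82, 12.51 and 11.75 in null lungs. It was among the steadier of the ligands, with a gap of 1.65 between the groups. The mean went from 9.59 ± 0.44 to 12.03 ± 0.42 (SD, n = 3 each), 5.41-fold (log2 difference 2.44, SE 0.29, 95% interval 1.74 to 3.14, limma adjusted p = 0.036). It kept its call without null replicate 1 (adjusted p = 0.0401) and lost it in cyclic loess (0.0502) and without any other array (0.0871 without null replicate 2, 0.0904 without control replicate 2, 0.0991 without null replicate 3, 0.0998 without control replicate 3 and 0.168 without control replicate 1). Over all alternatives it ran from 0.0122 to 0.308. Within the samples of the shared title number the difference was 2.04.

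Ccl22 read 7.55, 7.95 and 6.69 in controls and 9.26, 10.13 and 9.37 in null lungs, with no overlap. Its difference of 2.19 (SE 0.37, 95% interval 1.29 to 3.09, 4.57-fold) did not pass (limma adjusted p = 0.0757), and it passed with array weights (0.0233) and with a random block for the title number (0.0378), in a range up to 0.33 over all alternatives. Within the samples of the shared title number it was 1.80. In both genes control replicate 2 was the highest control and null replicate 2 the highest null sample. Control replicate 3, the highest control for Ccl8, Ccl11 and Ccl24, was the lowest for Ccl17 and Ccl22, so the ligands did not all order the controls alike.

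Cx3cl1, a membrane-bound chemokine whose gene lies between Ccl22 and Ccl17, averaged 8.15 in both groups (difference 0.00, 95% interval -0.68 to 0.67). Pllp and Ciapin1, the genes on the outer sides of Ccl22 and Ccl17, differed by -0.20 and 0.14, and neither passed. Ccl11 and Ccl8 lie in another run of CC chemokine genes, in the order Ccl2, Ccl7, Ccl11, Ccl12, Ccl8 and Ccl1. All 6 genes of that run had a positive difference, with a median of 1.15, and none passed (limma; 3 of the 6 at an unadjusted p under 0.05). Ccl2, Ccl7 and Ccl12, which attract monocytes, differed by 1.02, 1.28 and 0.84. As for Ccl11, control replicate 3 read higher than null replicate 1 in these 3 genes, at 8.51 against 7.41 for Ccl2, 7.60 against 6.36 for Ccl7 and 10.43 against 9.04 for Ccl12. Ccl8 and Ccl1 did not share that overlap. For Ccl1, dim in controls, control replicate 3 read 4.87 and null replicate 1 read 5.01. Beside Ccl24, the measured genes Hip1 and Rhbdd2 differed by -0.10 and 0.01.

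**Figure D3:**
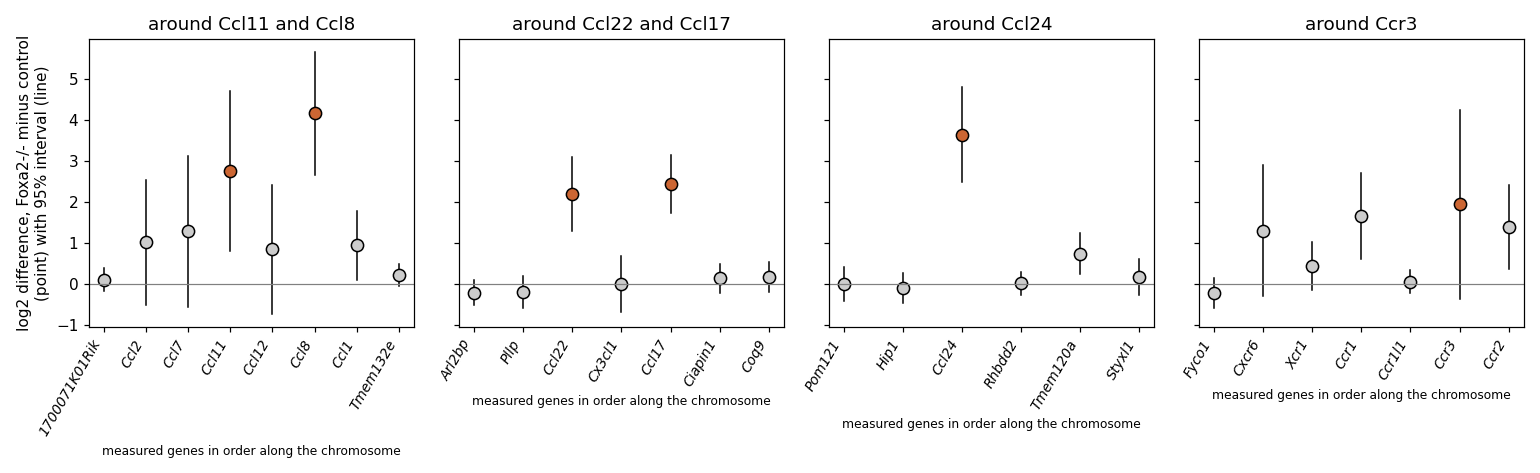
Log2 difference, Foxa2-/- minus control, with 95% intervals (vertical axis) for the measured genes around Ccl11 and Ccl8, Ccl22 and Ccl17, Ccl24, and Ccr3, in chromosome order and not to distance; orange points are the genes described here. Cx3cl1, between Ccl22 and Ccl17, lies at 0.00, whereas Ccr1 (1.65) and Ccr2 (1.38), near Ccr3, lie above 0.

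Ccr3, the eotaxin receptor of eosinophils, overlapped between the groups. It read 5.54, 5.83 and 8.10 in controls and 6.67, 9.75 and 8.88 in null lungs. Control replicate 3 thus exceeded null replicate 1 by 1.43. The difference of 1.94 (SE 0.96, 95% interval -0.36 to 4.24, 3.84-fold) did not pass (limma adjusted p = 0.487) and was 3.48 within the samples of the shared title number and 1.28 without null replicate 2. It was 2.75 when control replicate 3 was dropped and 2.82 when null replicate 1 was. Its order over samples was close to that of Ccl11, with null replicate 2 highest and control replicate 3 above null replicate 1 by 0.02 in Ccl11.

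Of 8 measured eosinophil genes 3 rose and none fell (limma; 6 at an unadjusted p under 0.05), with a median difference of 1.56. Their summed linear signal ran from 2192 to 2645 in controls and from 5907 to 13366 in null lungs. Prg2, the major basic protein of the granules, read 6.75, 7.20 and 7.52 in controls and 10.24, 10.86 and 10.87 in null lungs (difference 3.5, limma adjusted p = 0.0152), with no sample out of place. Epx, eosinophil peroxidase, differed by 2.40 (adjusted p = 0.0208) and Prg3 by 1.55 (adjusted p = 0.0429), both from dim control signal. Siglecf, an eosinophil lectin that alveolar macrophages also carry, differed by 1.58 (adjusted p = 0.138). Il5ra, the IL-5 receptor chain of eosinophils, differed by 0.30 (95% interval -0.47 to 1.06) and was lowest of all 6 samples in null replicate 1, at 5.61. The test of whether the difference of Ccr3 is unlike that of Prg2 was not made.

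**Figure D4:**
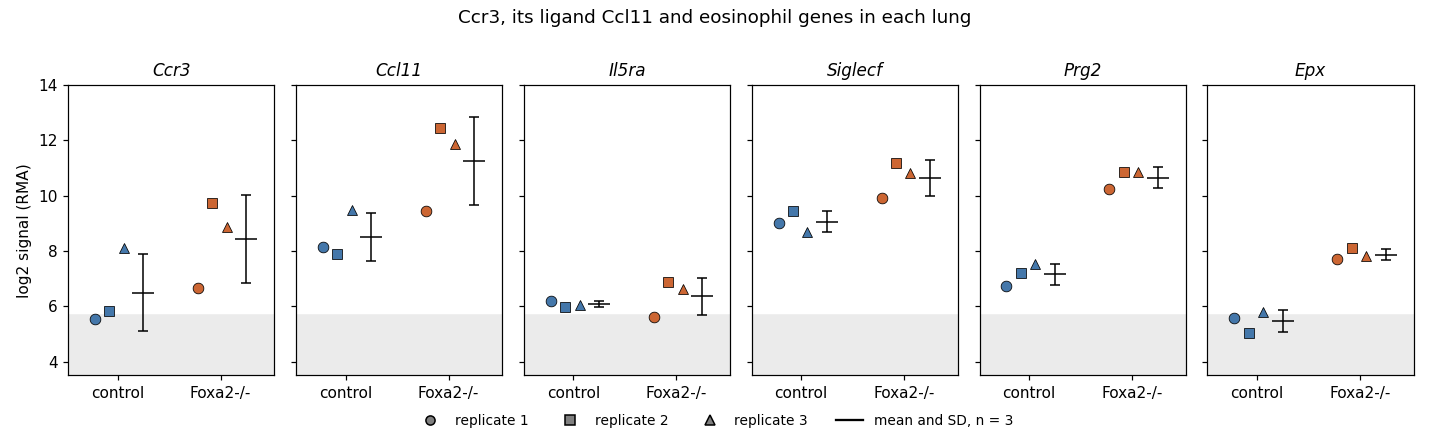
Log2 signal (vertical axis) of Ccr3, Ccl11 and 4 eosinophil genes in each control (blue) and Foxa2-/- (orange) lung, with the mean and SD of 3 samples. For Ccr3 control replicate 3 (8.10) lies above null replicate 1 (6.67), whereas for Prg2 and Epx all null samples lie above all controls.

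Ccr8, the receptor of mouse CCL8, was dim in every sample, at 4.28, 4.33 and 4.23 in controls and 4.73, 5.25 and 5.58 in null lungs. Both group means, 4.28 ± 0.05 and 5.19 ± 0.43 (SD, n = 3 each), stay under the lowest of the arrays' 25th percentiles (5.69 to 5.78), where signal above background cannot be shown, so no fold is given. The groups did not overlap, and the difference of 0.91 (SE 0.22, 95% interval 0.39 to 1.43) did not pass (limma adjusted p = 0.156). It did without null replicate 1, at 1.14 (adjusted p = 0.0315, in a range of 0.0186 to 0.43 over all alternatives).

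Ccr4, the receptor of CCL17 and CCL22, was equally dim and read 4.50, 4.37 and 4.48 in controls and 4.65, 4.40 and 4.15 in null lungs. The groups overlap fully. Its difference was -0.05 (SE 0.15, 95% interval -0.41 to 0.32, limma adjusted p = 0.926), so a rise above 0.32 lies outside the interval, within the limits of a probe set this dim.

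Markers of T cells, the cells that carry CCR4 and CCR8, did not pass: 0 of 10 did (1 at an unadjusted p under 0.05), with a median difference of 0.85 (0.39 without control replicate 3 and 0.45 without null replicate 2). Their summed linear signal ran from 8859 to 14341 in controls and from 12260 to 20656 in null lungs, so the groups overlapped. Cd4 and Cd3e, the T cell co-receptor and receptor chain, differed by 1.06 (limma adjusted p = 0.349) and 0.85 (0.494). Of the list's differences 8 of 10 were positive. Its Th2 genes Gata3, Maf and Ptgdr2 differed by 0.09, -0.08 and -0.14, with Ptgdr2 dim in both groups. Control replicate 3 was lowest for Cd4 (7.48) and Cd3e (9.98), the reverse of its place in Ccl8, Ccl11 and Ccl24. Among 6 genes of regulatory T cells 1 rose, Tnfrsf18, a costimulatory receptor (1.26, adjusted p = 0.036), and 4 had an unadjusted p under 0.05. That list's median was 0.77, with summed signals from 1438 to 1823 in controls and from 2145 to 3738 in null lungs.

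Genes of thymus tissue were also higher in part. Of 10 measured, 2 rose, Dntt, the DNA polymerase of developing lymphocytes (4.08, limma adjusted p = 0.0454), and Arpp21 (2.00, adjusted p = 0.0198), none fell, and the median was 1.67 (0.90 without null replicate 2). Of the 10, 6 had an unadjusted p under 0.05. Their summed signal ran from 403 to 1202 in controls and from 3137 to 8057 in null lungs. Rag1 had the largest difference of the list, 4.24, and did not pass (adjusted p = 0.0534). Prss16 read 5.60, 5.73 and 5.48 in controls and 5.60, 9.16 and 6.90 in null lungs (difference 1.62, adjusted p = 0.497). Foxn1, the defining factor of thymic epithelium, lay between 5.79 and 5.90 in controls and between 5.63 and 5.94 in null lungs. Psmb11, a proteasome subunit of the same cells, was dim by its mean in both groups, yet every null sample (5.27 to 5.89) lay above the controls (4.86 to 5.06), with a difference of 0.71 that did not pass (adjusted p = 0.196). Their part in the differences of Ccl17, Ccl22 and the receptors was not tested.

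Macrophage genes rose in part: of 12 markers of macrophages and alternative activation, possible sources of Ccl17, Ccl22 and Ccl24, 2 passed. These 2 were Cd68, found in lysosomes of phagocytes (1.45, limma adjusted p = 0.0198), and the integrin chain Itgax (1.94, adjusted p = 0.036). All 12 had a positive difference, with a median of 1.34. At an unadjusted p under 0.05 there were 11, where 12.3% of all genes were. In 11 of the 12 every null array lay above all controls, where 10.8% of all genes did so. The list's summed signal ran from 27727 to 48238 in controls and from 67925 to 84730 in null lungs. None of 11 dendritic cell genes passed (4 at an unadjusted p under 0.05). Their median was 1.02 (0.61 without control replicate 3) and their summed signal ran from 14962 to 21748 in controls and from 24541 to 27216 in null lungs. Batf3 and H2-Ab1, a factor of their development and a class II chain, differed by 1.69 (adjusted p = 0.0795) and 1.13 (0.221). Whether these cells account for any ligand was not tested. Mast cell and basophil genes had 0 of 8 past the threshold (2 at an unadjusted p under 0.05), a median of 0.23 (0.09 without null replicate 3) and summed signals from 3435 to 4610 in controls and from 3316 to 3834 in null lungs. Mcpt4 and Cma1, mast cell proteases, differed by 0.60 and 0.65. Of the list's differences 5 of 8 were positive, and Kit, Ms4a2 and Cpa3 differed by -0.24, -0.21 and -0.02. Kit, at 11.29 to 11.99 over the samples, was by far the brightest of the list and made up most of its summed signal. For B cells 0 of 5 passed (0 at an unadjusted p under 0.05), with a median of 0.09 (0.04 to 0.37 with 1 array left out, the highest without control replicate 1) and summed signals of 2798 to 4586 and 3147 to 5701, and Cd79a and Cd79b differed by 0.32 and 0.37.

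The other CC chemokine ligands held 1 gene that rose among 13 measured, Ccl9, a ligand of CCR1. It read 10.27, 10.14 and 10.57 in controls and 11.86, 12.71 and 12.64 in null lungs (difference 2.08, SE 0.25, limma adjusted p = 0.0367). The list had a median of 0.84 (0.40 without null replicate 2 and 1.34 without null replicate 1). Of its 13 differences 11 were positive, and 5 genes had an unadjusted p under 0.05. In 5 genes every null array lay above all controls, where 10.8% of all genes did so. In 1, Ccl27a, a skin-type chemokine, every null array lay below them (-0.42, adjusted p = 0.31), where 1588 of all 18193 genes did so. Among the other CC receptors and scavengers 0 of 11 passed (4 at an unadjusted p under 0.05), with a median of 0.16 (0.05 without null replicate 1). Ccr1 differed by 1.65 (adjusted p = 0.19) and Ccr9, the receptor of thymus and gut homing, by 1.99 (0.228). The scavengers Ackr1, Ackr2 and Ackr4, which take up chemokines without signalling, differed by 0.03, -0.02 and -0.14.

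Of 21 genes of type 2 cytokines and their signalling 1 rose. It was Csf2rb, the common receptor chain of IL-3, IL-5 and GM-CSF (1.54, SE 0.15, limma adjusted p = 0.0217). The list's median was 0.31, 6 genes had an unadjusted p under 0.05 and 18 of 21 differences were positive, beside 50.8% of all genes. Tslp had the lowest difference, at -0.75 (adjusted p = 0.489), and Il25 and Il9, dim in both groups, differed by 0.03 and 0.08. Il4 read 5.24, 5.47 and 5.97 in controls and 6.25, 7.74 and 6.99 in null lungs, and Il13 read 5.37, 5.44 and 5.21 against 6.35, 7.51 and 5.98. For both, every null sample lay above the controls, with differences of 1.43 and 1.27 that did not pass (adjusted p = 0.2 and 0.234). Null replicate 2, the highest null sample for all 5 ligands, was also the highest for Il4 and Il13. That place was not particular to them. Null replicate 2 had the highest summed signal of all samples for eosinophils, T cells, regulatory T cells and thymus tissue. The same held for dendritic cells, macrophages and the other CC ligands. It did not for B cells, mast cells and basophils, the other CC receptors and scavengers, fibroblasts and smooth muscle, or lung epithelium and endothelium. Stat6, which carries the IL-4 and IL-13 signal to the nucleus, differed by 0.06 (95% interval -0.28 to 0.39).

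The genes most like each of the 8 over the 6 arrays were sought among 9093 genes brighter than the median gene, by Pearson's r. With 2 groups of 3 arrays such an r mostly repeats the difference between groups, and it carries no test. Ms4a6d (0.997) and Ccl9 (0.996) were nearest to Ccl8, Hpse (0.993) and Pla2g7 (0.992) to Ccl11, Itgb2 and F7 (both 0.996) to Ccl17, and Mgl2 (0.998) and Polr1d (0.996) to Ccl22. Lgals3 and Sdf2l1 (both 0.997) were nearest to Ccl24. For the receptors they were Scp2 (0.986) and Pbld2 (0.979) for Ccr3, Fcgr4 (0.992) and Ppl (0.991) for Ccr8, and Ralb (0.998) and Prmt1 (0.991) for Ccr4. Among the 8 genes themselves r was highest for Ccl17 with Ccl22 (0.98) and lowest for Ccr4 with Ccr8 (-0.60).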

How the data were processed

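Per the submitters' processing notes the authors made the deposited log2 values with RMA, which corrects background, equalises the arrays and summarises each probe set; its version and settings are not stated in those notes. RMA compresses differences near the floor and hides a shift of most genes. Groups came from the genotype label. Replicate numbers follow accession order and pair nothing. Nothing states whether the 3 lungs of a group came from 3 animals, so p-values cover only the variation among these arrays, which may be technical.

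Of 45101 probe sets, 64 array controls were left out, and each gene was represented by its brightest single-gene probe set. Null and control were compared over all genes with limma 3.58.1 in R 4.3.3 (lmFit, eBayes, no covariate, two-sided, Benjamini-Hochberg), with statmod 1.5.0 for the random block. Lists were described by counts and medians, with no set test. Their 148 entries gave 135 with a gene on the array. On simulated data for null against control over 18193 genes, the test called 40.3%, 88.1% and 97.0% of genes changed by 1, 2 and 3 log2 units. Of genes left unchanged there it called 0.0389%. The simulated noise was normal and independent between genes, with no effect shared within an array. The shares called therefore need not hold for the real arrays.

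The 8 genes and the lists were chosen with earlier results of these data known. Beyond Foxa2 and the 8 genes, the rule named from each list up to 4 genes that passed, or else 2 with the smallest p, and 2 likest genes for each of the 8. Other genes given with values, such as the chromosomal neighbours, Siglecf, Il5ra, Il4, Il13, Stat6, Foxn1, Psmb11, Ccl27a, Sftpc, Scgb1a1 and the scavengers, were chosen after their values were seen. So were Gata3, Maf, Ptgdr2, Kit, Ms4a2, Cpa3, Tslp, Il9, Il25, Il33, Rag1 and Prss16. Alternatives were other normalisations, filters, variance models, the title number as a block, left-out arrays, mean probe sets and other thresholds.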

Additional observations from a re-analysis of the deposited data

How the results depend on the processing

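The number of the 8 genes past the threshold, 2 as reported, was 0 in cyclic loess and 0 over probe sets (limma throughout). It was 4 with a random block for the title number, 4 at an adjusted p under 0.1 and 6 with array weights. In these settings 6 to 7 of the genes had an unadjusted p under 0.05. Over genes above the median of means only Ccl8, Ccl11 and Ccl17 were tested. Of them Ccl17 passed, and all had an unadjusted p under 0.05. Over all genes the number called, 104 as reported, was 48 in cyclic loess and 52 above the median. It was 399 with the random block, 320 at an adjusted p under 0.1 and 607 with array weights, so the counts above go up and down with it. With 1 array left out the count among the 8 ran from 0 to 4. It was 4 without null replicate 1, where 249 of all genes were called, and 0 without each other array, where 0 to 19 of all genes were called, so a 0 there says nothing particular about the 8. Over probe sets, where none passed, 6 did with array weights, 3 with the random block, 1 with trend and robust settings, and 0 to 1 with 1 array left out. Of all 45037 probe sets limma called 45 as reported, 564 with array weights, 279 with the random block and 72 with trend and robust settings. With 1 array left out it called 0 to 144, the highest without null replicate 1, so these counts too go up and down with the whole. The number of genes above all controls was 5 to 7 in each alternative tried. The 7s came from leaving out control replicate 3 or null replicate 1, and over all genes that count went from 1972 as reported to between 2609 and 3177 of 18193 with 1 array left out. Among the 8 genes every sign held except that of Ccr4, whose difference ran from -0.17 to 0.0797 with 1 array left out (-0.17 without null replicate 1, 0.0797, turned in sign, without null replicate 3). A fixed block for the title number leaves 3 informative samples, those of the shared number, only 1 of them a control, so its counts are not given. The causes of these changes were not tested. The number of arrays, 3 per group, limits every value, and Ccr4 and Ccr8 are limited by signal near the floor.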

Other observations

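Other chemokine and cytokine genes differed within the null group. Ccl25, a chemokine made by thymic and gut epithelium, read 8.41, 10.60 and 9.24 in null lungs and 8.51 to 8.67 in controls (difference 0.83, limma adjusted p = 0.575), and Ccr9, its receptor, read 8.30, 9.29 and 8.23 against 5.34 to 7.27. Il5, the growth factor of eosinophils, stood out in a single sample, null replicate 2, at 7.03, with 4.62 and 4.88 in the other null lungs and 4.50 to 4.65 in controls. Il13ra2, the decoy receptor of IL-13, read 7.50, 9.27 and 7.86 in null lungs and 5.91 to 6.80 in controls (difference 1.88, adjusted p = 0.178).

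Ccl5, a chemokine of T cells, varied more within the controls than between the groups, at 8.16, 10.94 and 5.90 in controls and 8.06, 11.25 and 9.40 in null lungs. All of these genes were chosen after their values were seen.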
